A study of Mus musculus with 12 samples.

Results

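Pou5f1, Sox2, Sall4, Zscan10 and Utf1 encode nuclear factors of mouse embryonic stem (ES) cells, and Lin28a, Lin28b and Trim71 encode RNA-binding or RNA-associated proteins tied to the let-7 family of microRNAs. These 8 genes were taken from an array data set as the probe sets annotated to exactly 1 of their symbols. Where a gene had several such probe sets, the 1 with the highest mean over all 12 arrays stood for it, and the 8 genes were part of 22180 genes read in the same way. All 8 had a mean log2 level above 6, as did 9761 genes in all.

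Pou5f1 (also called Oct4) and Sox2 bind DNA side by side at enhancers of pluripotency genes, and Sall4 and Zscan10 are zinc finger factors that work with them. ERRb, an orphan nuclear receptor and the product of Esrrb, is a further factor of this network and recognises DNA sites that contain the letters AAGGTCA. Lin28a and Lin28b bind let-7 precursors and block their maturation, and mature let-7 in turn represses Lin28a, Lin28b and Trim71 messages, so the proteins and the microRNA oppose each other.

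The study compared cells of the mouse ES cell line K3 to profile genes that depend on ERRb. In KO/ERRb-wt cells the Esrrb gene had been knocked out and a lentivirus then brought in ERRb. KO/mock cells carried the knockout with a mock treatment, and WT/mock cells were mock-treated cells with the gene intact. All cells were kept in N2B27, a serum-free medium, with the kinase inhibitors CH99021 and PD0325901, which act on GSK3 and MEK. The labels name LIF for growth and doxycycline for the last 3 days. Every label covered 4 arrays, made of 2 clones with 2 replicates each. The clones are 12-1 and 12-3 in KO/ERRb-wt, 8-3 and 8-4 in KO/mock, and 5-2 and 5-5 in WT/mock. The sources used here do not give the lesion in Esrrb, the promoter of the virus or the content of the mock treatment.

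The deposited values were log2 expression after the authors' normalization, and array medians lay between 5.00 and 5.07. The p-values rest on a spread pooled over all 12 arrays, with 4 arrays from 2 clones under each label. Arrays of a clone share its history. The fit put the correlation within clones at 0.0286, so it treated arrays of the same clone as almost independent. What sets 2 clones apart from another 2 cannot be told apart from the label. Esrrb, the targeted gene, went against the labels. It read 6.99, 6.76, 6.50 and 6.68 on the arrays labelled KO/ERRb-wt, 7.48, 8.00, 7.74 and 7.41 on those labelled KO/mock, and 7.38, 7.38, 7.39 and 7.38 on those labelled WT/mock. The probe set was therefore lower under the label that adds ERRb than under both others, and it was not lower under KO/mock than under WT/mock. Where the probe set lies relative to the lesion is not known here, so every group name below means the arrays carrying that label. A difference between 2 labels is the first named minus the second. A gene said to rise or fall between 2 labels was higher or lower under the first named. The 342 genes of chromosome 14 with a mean level of at least 6 had a median log2 difference of -0.48 between KO/ERRb-wt and WT/mock and -0.41 between KO/mock and WT/mock. None of the 8 genes lies on that chromosome.

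The cells carried the markers of their type. Over 13 ES cell markers, which include Pou5f1, Sox2, Sall4 and Utf1, the mean log2 level lay between 10.01 and 10.06 on the KO/ERRb-wt arrays, between 10.1 and 10.12 on the KO/mock arrays and between 10.13 and 10.2 on the WT/mock arrays. The groups did not overlap in this mean. Klf4, a factor of the naive state, had the largest difference of that list between KO/ERRb-wt and WT/mock, at -0.78.

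The start regions of the 4 genes that were called and have a RefSeq entry are shown because ERRb is a DNA-binding factor. Windows of 300 bases, 250 before and 50 after the start of the gene, were read from RefSeq promoter entries of GRCm38.p6 for 7 of the 8 genes. Each is written from 5′ to 3′ on the strand of its gene, and capitals mark TCAAGG, the letters that precede TCA in many ERR sites.
Zscan10 (chr17:23600576-23600875, plus strand): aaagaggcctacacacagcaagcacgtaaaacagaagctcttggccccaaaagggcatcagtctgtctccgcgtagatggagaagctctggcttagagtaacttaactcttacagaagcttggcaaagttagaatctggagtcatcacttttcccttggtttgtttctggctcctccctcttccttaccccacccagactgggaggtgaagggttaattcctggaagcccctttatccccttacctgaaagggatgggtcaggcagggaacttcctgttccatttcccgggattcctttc
Lin28a (chr4:134018767-134019066, minus strand): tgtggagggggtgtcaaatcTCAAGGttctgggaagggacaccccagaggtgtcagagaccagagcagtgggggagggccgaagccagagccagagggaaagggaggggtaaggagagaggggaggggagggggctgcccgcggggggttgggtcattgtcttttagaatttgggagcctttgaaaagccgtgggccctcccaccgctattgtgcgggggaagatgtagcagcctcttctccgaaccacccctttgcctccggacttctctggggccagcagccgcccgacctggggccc
Trim71 (chr9:114564320-114564619, minus strand): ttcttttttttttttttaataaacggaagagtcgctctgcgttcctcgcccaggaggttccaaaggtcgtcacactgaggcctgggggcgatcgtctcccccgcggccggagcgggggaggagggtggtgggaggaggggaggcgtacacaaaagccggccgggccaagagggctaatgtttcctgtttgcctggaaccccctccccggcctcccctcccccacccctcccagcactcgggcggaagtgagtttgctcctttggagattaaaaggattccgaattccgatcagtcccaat
Utf1 (chr7:139943606-139943905, plus strand): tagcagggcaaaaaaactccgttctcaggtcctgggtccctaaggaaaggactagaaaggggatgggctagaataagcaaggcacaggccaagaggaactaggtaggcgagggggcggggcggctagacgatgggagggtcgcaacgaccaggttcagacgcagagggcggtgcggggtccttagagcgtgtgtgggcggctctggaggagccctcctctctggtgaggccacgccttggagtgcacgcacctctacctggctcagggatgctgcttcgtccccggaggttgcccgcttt
Of these windows, the Lin28a window holds TCAAGG, starting at position -230 from the start, and the other 3 do not. Both strands of 8 windows, 2 of them of Pou5f1, were searched. AAGGTCA, which can overlap TCAAGG by its letters AAGG, was in 0 of 8 windows, against 4.72% of 32851 promoters of the same length. TCAAGG was in 3 of 8, against 14.4%. These were the Lin28a window, the first Pou5f1 window and the Sox2 window. The octamer ATGCAAAT, the letters that POU factors such as Pou5f1 recognise, was in 0 of 8, against 1.74% of promoters. The SOX letters ATTGTT were in 1 of 8, the second Pou5f1 window, against 10.7%. These counts describe letters in short windows and say nothing of binding.

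More of the 8 genes were called between KO/ERRb-wt and WT/mock than in either other comparison, as were more of all genes. Lin28a, Zscan10, Sall4 and Trim71 rose and Utf1 fell, by 1.21- to 1.69-fold, while Pou5f1, Sox2 and Lin28b were not called at an adjusted p under 0.05 (limma, Benjamini-Hochberg over all 41345 probe sets). So 4 of the 8 were called higher, against 8.82% of all genes, and 1 was called lower, against 12%. In either direction 5 of 8 were called, against 20.8% of all genes and 37.8% of genes with a mean level of at least 6. The 8 genes were chosen with earlier results of these data known, so these shares are no test of the set. The arrays of the groups did not overlap for 5 genes that were higher, against 13.5% of all genes, and for 1 that was lower, against 15%. The median difference over the 8 genes was 0.28, and over all genes it was 0.03.

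Lin28a rose between KO/mock and WT/mock, and the other 7 were not called. That is 1 gene called higher, against 2.11% of all genes, and 0 called lower, against 3.47%. In either direction 5.58% of all genes were called, and 10.8% of genes with a mean level of at least 6. At an unadjusted p under 0.05 limma gave 3 higher and 0 lower. In the fit without a clone block 3 of the 8 passed that level, as did 6931 of all 41345 probe sets. The arrays did not overlap for 4 genes that were higher, Lin28a, Zscan10, Sall4 and Lin28b, against 8.44% of all genes. None was lower without overlap, against 7.48%. The median difference over the 8 genes was 0.13, and over all genes it was 0.00425.

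Utf1 fell between KO/ERRb-wt and KO/mock, and the other 7 were not called. That is 0 called higher by limma, against 1.24% of all genes, and 1 called lower, against 3.17%. Limma gave 1 higher and 2 lower at an unadjusted p under 0.05. In the fit without a clone block 3 of the 8 passed that level, as did 8008 of all 41345 probe sets. In either direction 4.4% of all genes were called, and 8.3% of genes with a mean level of at least 6. The arrays did not overlap for Trim71, which was higher (7.31% of all genes were), and for Utf1 and Lin28b, which were lower (9.69% of all genes were). The median difference over the 8 genes was 0.10, and over all genes it was 0.017. The 3 comparisons share arrays in pairs, so their values are not independent of each other.

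**Figure D1:**
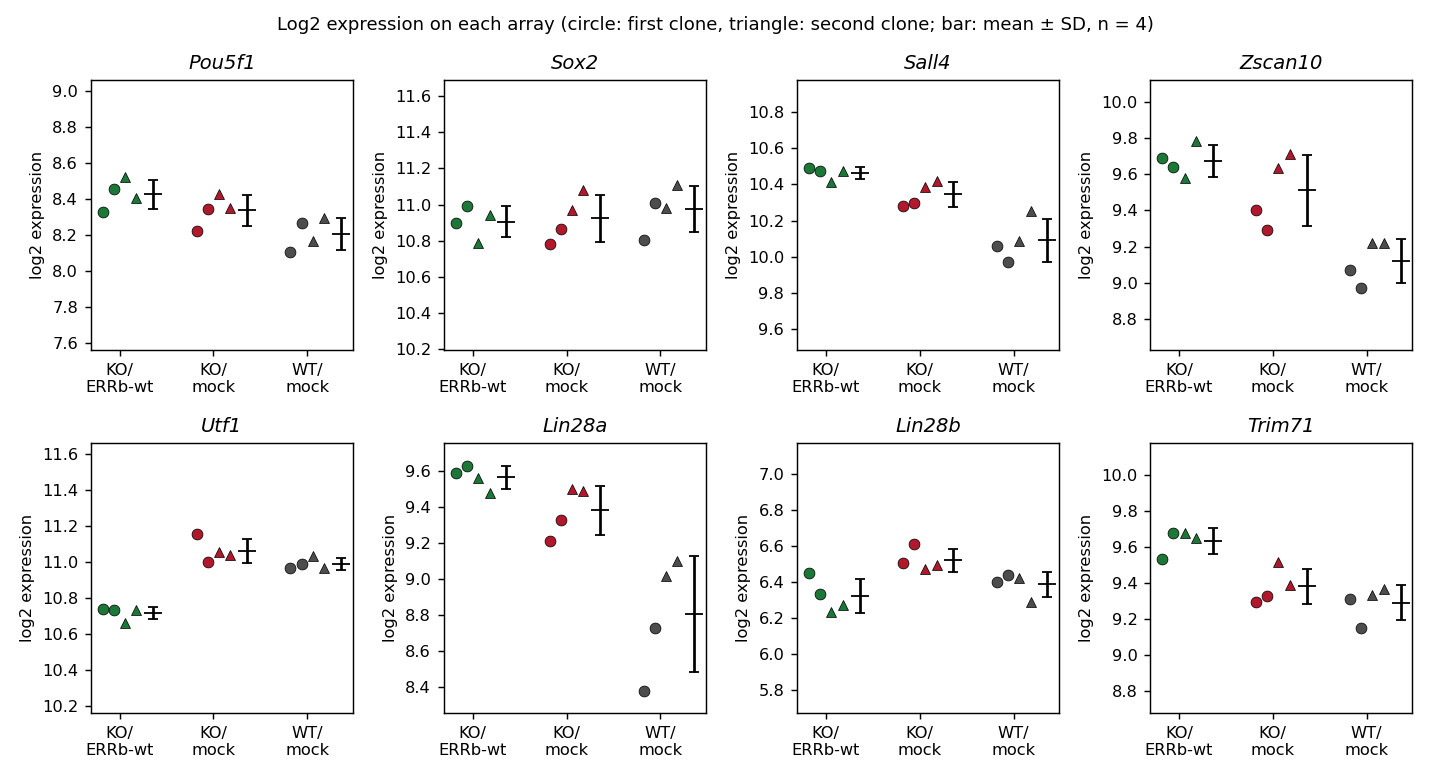
Log2 expression (vertical axis) of the 8 genes on each of the 12 arrays, by label, with circles for the first clone of a label, triangles for the second, and bars for the mean ± SD of 4 arrays. All 8 axes span the same number of log2 units; Lin28a, Sall4 and Zscan10 lie lowest on the WT/mock arrays, Utf1 lies lowest on the KO/ERRb-wt arrays, and the 3 groups overlap for Sox2.

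Pou5f1, a POU-domain factor without which ES cells lose their identity, read 8.33, 8.45, 8.52 and 8.40 on the KO/ERRb-wt arrays, 8.22, 8.34, 8.43 and 8.35 on the KO/mock arrays and 8.10, 8.26, 8.17 and 8.29 on the WT/mock arrays. The KO/ERRb-wt arrays all lay above the WT/mock arrays, and the KO/mock arrays overlapped with both. The group means were 8.43 ± 0.08, 8.34 ± 0.09 and 8.21 ± 0.09 in the same order (SD, n = 4 each). The difference between KO/ERRb-wt and WT/mock was 0.22 ± 0.07 (SE; 95% interval 0.07 to 0.37) with an adjusted p of 0.0535, so it was not called. For KO/mock against WT/mock it was 0.13 (-0.02 to 0.28; adjusted p = 0.41), and between KO/ERRb-wt and KO/mock 0.09 (-0.06 to 0.24; adjusted p = 0.526).

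Sox2, the HMG-box partner of Pou5f1, read 10.90, 10.99, 10.79 and 10.94 on the KO/ERRb-wt arrays, 10.78, 10.86, 10.97 and 11.08 on the KO/mock arrays and 10.80, 11.01, 10.98 and 11.11 on the WT/mock arrays. The 3 sets of arrays overlapped throughout. The means were 10.90 ± 0.09, 10.92 ± 0.13 and 10.98 ± 0.13 (SD, n = 4 each). The interval of the difference was -0.26 to 0.12 between KO/ERRb-wt and WT/mock, -0.24 to 0.13 between KO/mock and WT/mock and -0.20 to 0.17 between KO/ERRb-wt and KO/mock, so a change of more than 0.26 in either direction lay outside all 3 intervals.

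Sall4, a zinc finger factor that partners with Pou5f1 and recruits a histone deacetylase complex, read 10.49, 10.48, 10.42 and 10.47 on the KO/ERRb-wt arrays, 10.28, 10.30, 10.39 and 10.42 on the KO/mock arrays and 10.06, 9.97, 10.09 and 10.25 on the WT/mock arrays. All 8 arrays of the knockout labels lay above the 4 WT/mock arrays. Sall4 averaged 10.46 ± 0.03, 10.35 ± 0.07 and 10.09 ± 0.12 (SD, n = 4 each). It rose by 0.37 ± 0.07 (SE), or 1.30-fold, between KO/ERRb-wt and WT/mock (adjusted p = 0.00276). KO/mock and WT/mock were 0.26 ± 0.07 apart (0.11 to 0.40), with an adjusted p of 0.0589, and between KO/ERRb-wt and KO/mock 0.12 (adjusted p = 0.379). A second Sall4 probe set, with a mean level of 4.86, gave 0.14 between KO/ERRb-wt and WT/mock (adjusted p = 0.645). With both probe sets averaged the difference was 0.26 and not called (adjusted p = 0.0735).

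Zscan10, also known as Zfp206, is a SCAN-domain zinc finger factor found in ES cells. It read 9.69, 9.64, 9.58 and 9.78 on the KO/ERRb-wt arrays, 9.40, 9.29, 9.63 and 9.71 on the KO/mock arrays and 9.07, 8.97, 9.22 and 9.22 on the WT/mock arrays. Here too all 8 arrays of the knockout labels lay above the 4 WT/mock arrays. The means were 9.67 ± 0.09, 9.51 ± 0.20 and 9.12 ± 0.12 (SD, n = 4 each). Zscan10 rose by 0.55 ± 0.10 (SE), or 1.47-fold, between KO/ERRb-wt and WT/mock (adjusted p = 0.0027). KO/mock exceeded WT/mock by 0.39 ± 0.10 (0.18 to 0.61), with an adjusted p of 0.0510, just past the threshold. The KO/mock clones lay apart, with clone 8-4 at 9.68 and clone 8-3 at 9.35. That difference of 0.33 ± 0.09 (SE) had an unadjusted p of 0.00707 and an adjusted p of 0.554 in limma's fit of the 6 clones. Without clone 8-3 KO/mock exceeded WT/mock by 0.56, and this was called (adjusted p = 0.0163), while without clone 8-4 the difference was 0.23 and was not called (adjusted p = 0.378).

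Utf1, a chromatin-associated protein that limits loading of repressive marks at bivalent genes, went the other way. It read 10.74, 10.73, 10.66 and 10.73 on the KO/ERRb-wt arrays, 11.15, 11.00, 11.05 and 11.04 on the KO/mock arrays and 10.96, 10.99, 11.03 and 10.96 on the WT/mock arrays. Every KO/ERRb-wt array lay below every array of the other labels. The means were 10.72 ± 0.04, 11.06 ± 0.07 and 10.99 ± 0.03 (SD, n = 4 each). Utf1 fell by 0.35 ± 0.05 (SE) on the log2 scale between KO/ERRb-wt and KO/mock (1.27-fold lower; adjusted p = 0.00694) and by 0.27 ± 0.05 between KO/ERRb-wt and WT/mock (1.21-fold lower; adjusted p = 0.00475). KO/mock minus WT/mock was 0.07 (-0.04 to 0.19; adjusted p = 0.575). Leaving out clone 8-3 or clone 12-3 ended the call between KO/ERRb-wt and KO/mock, at -0.33 with an adjusted p of 0.0728 and -0.33 with 0.0712.

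Lin28a, which binds the terminal loop of let-7 precursors, had the largest differences of the 8 in both comparisons with WT/mock. It read 9.59, 9.63, 9.56 and 9.48 on the KO/ERRb-wt arrays, 9.21, 9.33, 9.50 and 9.49 on the KO/mock arrays and 8.38, 8.73, 9.01 and 9.10 on the WT/mock arrays. All 8 arrays of the knockout labels lay above the WT/mock arrays, and the WT/mock arrays were the most spread. Lin28a averaged 9.57 ± 0.06, 9.38 ± 0.14 and 8.81 ± 0.32 (SD, n = 4 each). It rose by 0.76 ± 0.14 (SE), or 1.69-fold, between KO/ERRb-wt and WT/mock (adjusted p = 0.00274), where 133 of the 22180 genes had a larger increase. It also rose between KO/mock and WT/mock, by 0.58 ± 0.14, or 1.49-fold (adjusted p = 0.0377), and 136 genes had a larger increase. KO/ERRb-wt minus KO/mock was 0.18 (-0.11 to 0.48; adjusted p = 0.508).

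The WT/mock clones lay apart in Lin28a by about as much as KO/mock and WT/mock did. Clone 5-5 averaged 9.06 and clone 5-2 averaged 8.56, a difference of 0.50 ± 0.11 (SE; unadjusted p = 0.00205, adjusted p = 0.389 in limma's fit of the 6 clones). In that fit 0 of 41345 probe sets were called between the WT/mock clones, 2 between the KO/mock clones and 7 between the KO/ERRb-wt clones, or 0%, 0.00484% and 0.0169%, and none belonged to the 8 genes. At an unadjusted p under 0.05 there were 3113, 2920 and 2756 probe sets in the same order, of which 1, 1 and 0 belonged to the 8 genes. Without WT/mock clone 5-2, Lin28a differed by 0.33 for KO/mock against WT/mock (adjusted p = 0.177), and without clone 5-5 it was 0.83 and was called (adjusted p = 0.00553). The call also ended without clone 8-4, at 0.46 (adjusted p = 0.315), and when each clone was averaged to 1 value (adjusted p = 0.282).

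The rise of Lin28a between KO/mock and WT/mock was also open to single arrays. Leaving out replicate 1 or 2 of WT/mock clone 5-2 raised its adjusted p to 0.0579 and 0.101. For replicate 2 of KO/mock clone 8-3 it was 0.0597, and for replicates 1 and 2 of clone 8-4 it was 0.105 and 0.108. Leaving out KO/ERRb-wt arrays, which enter this comparison only through the estimated spread, gave 0.0529 without replicate 1 of clone 12-1, and 0.0503 and 0.0555 without replicates 1 and 2 of clone 12-3. The call held without any of the other 4 arrays. By contrast, none of the 12 arrays left out in turn ended a call of the 8 genes between KO/ERRb-wt and WT/mock, where the highest adjusted p was 0.0195, for Trim71.

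**Figure D2:**
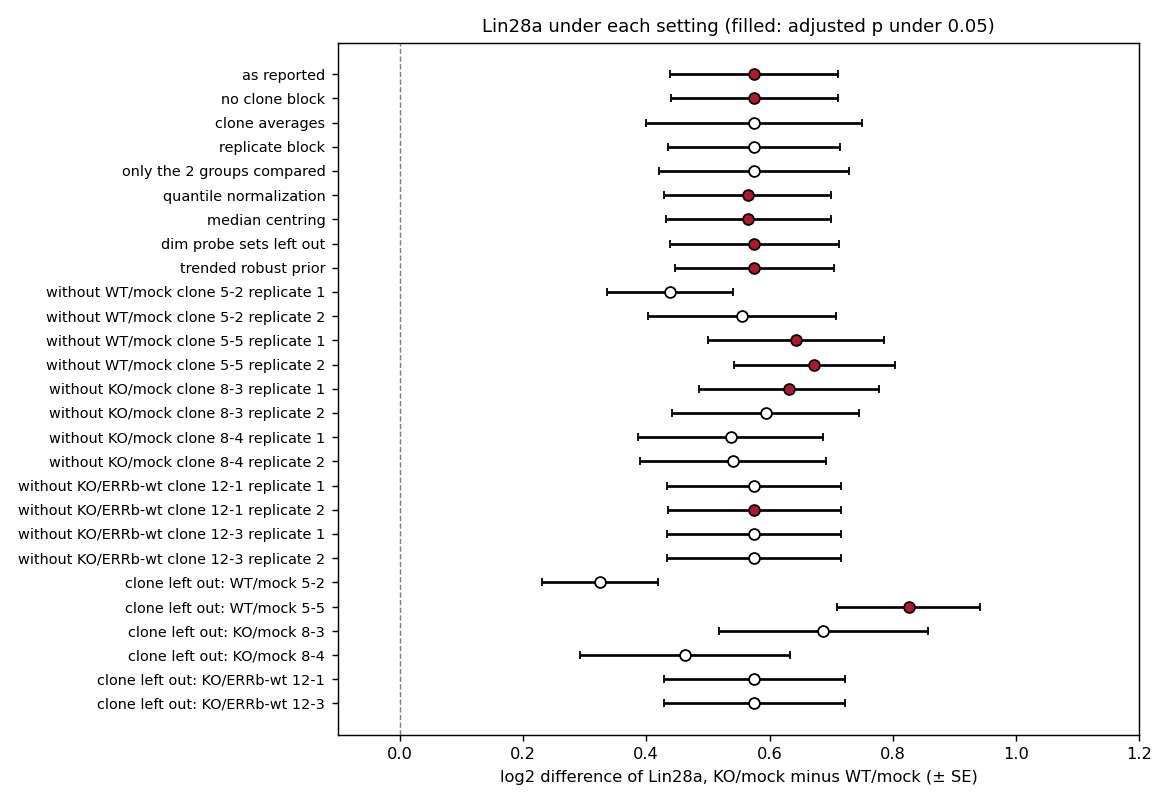
Log2 difference of Lin28a between KO/mock and WT/mock with its SE (horizontal axis) as reported and under each alternative (vertical axis), filled where the adjusted p was under 0.05. The difference lay between 0.33 and 0.83 in all of the settings drawn and lay above 0 in each, while the call came and went.

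Lin28b, the paralog of Lin28a, read 6.45, 6.33, 6.24 and 6.27 on the KO/ERRb-wt arrays, 6.51, 6.61, 6.47 and 6.49 on the KO/mock arrays and 6.40, 6.44, 6.42 and 6.29 on the WT/mock arrays. The KO/mock arrays lay above those of both other labels. The means were 6.32 ± 0.09, 6.52 ± 0.06 and 6.39 ± 0.07 (SD, n = 4 each). No difference was called: it was -0.20 (-0.34 to -0.06; adjusted p = 0.128) between KO/ERRb-wt and KO/mock, 0.13 (-0.01 to 0.28; adjusted p = 0.347) between KO/mock and WT/mock and -0.06 (-0.21 to 0.08; adjusted p = 0.581) between KO/ERRb-wt and WT/mock.

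Trim71, a let-7 target that encodes a TRIM-NHL protein with RNA-repressing activity, read 9.53, 9.68, 9.68 and 9.65 on the KO/ERRb-wt arrays, 9.29, 9.33, 9.52 and 9.39 on the KO/mock arrays and 9.31, 9.15, 9.34 and 9.37 on the WT/mock arrays. All KO/ERRb-wt arrays lay above the other 8. Trim71 averaged 9.63 ± 0.07, 9.38 ± 0.10 and 9.29 ± 0.10 (SD, n = 4 each). It rose by 0.34 ± 0.07 (SE), or 1.27-fold, between KO/ERRb-wt and WT/mock (adjusted p = 0.00641). KO/ERRb-wt exceeded KO/mock by 0.25 ± 0.07 (0.10 to 0.40), with an adjusted p of 0.0796, and between KO/mock and WT/mock 0.09 (-0.06 to 0.24; adjusted p = 0.623). Without clone 5-2 or clone 12-3 the call against WT/mock ended, at 0.28 with an adjusted p of 0.0648 and 0.31 with 0.0671.

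By the position of their arrays alone, the 8 genes did not share a pattern over the labels. Lin28a, Zscan10 and Sall4 were higher on all 8 arrays of the knockout labels than on the WT/mock arrays, as were 5.52% of all genes. Trim71 and Utf1 were set apart on the KO/ERRb-wt arrays, in opposite directions, and Lin28b on the KO/mock arrays. Of these, Trim71 was not called against KO/mock, and Lin28b was not called in any comparison. The share of all genes with a label set apart from both others was not computed. In RNA from whole cultures, a different share of cells of a state and a different amount of RNA per cell cannot be told apart.

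**Figure D3:**
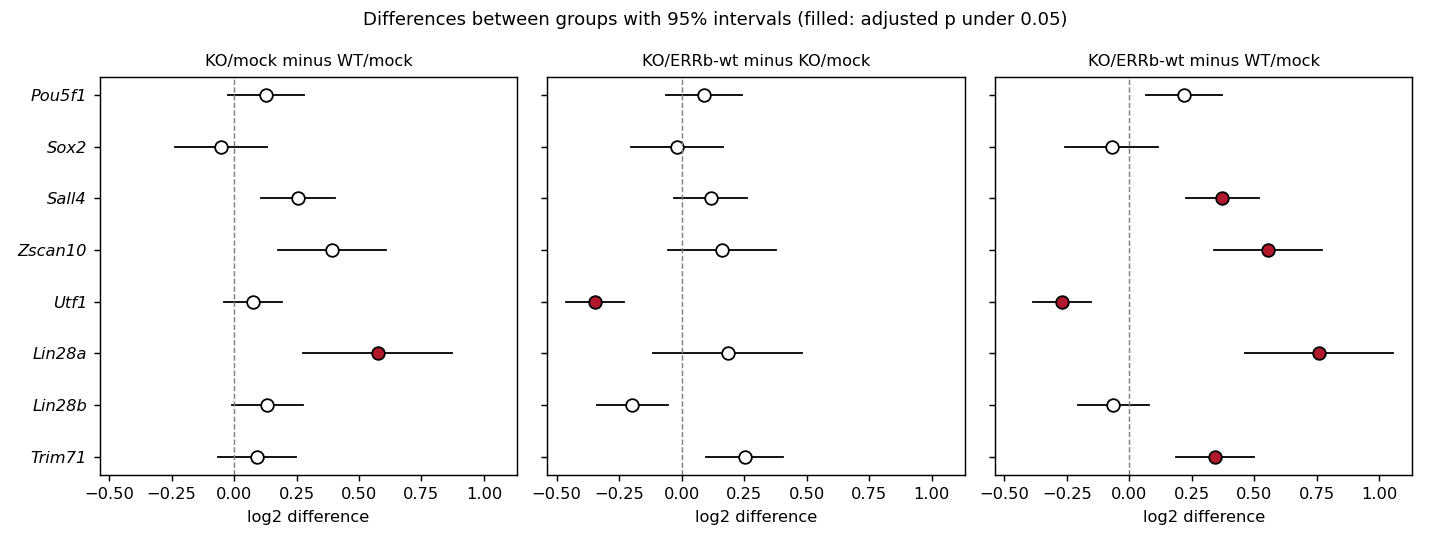
Log2 difference of each of the 8 genes (vertical axis) in each comparison (panels; horizontal axis in log2 units), with 95% intervals, filled where the adjusted p was under 0.05. Lin28a is the filled point at 0.58 in the KO/mock panel, Utf1 is the filled point at -0.35 between KO/ERRb-wt and KO/mock, and 5 points are filled between KO/ERRb-wt and WT/mock.

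The genes with the most similar pattern over the 12 arrays were named by Pearson's r among 9073 protein-coding genes with a mean level of at least 6. For Lin28a they were Gtf2b, a general transcription factor (r = 0.987), and Akap8 (r = 0.978). For Sall4 they were B3galnt2 (0.987) and Utp14a (0.983), for Zscan10 Syf2 (0.984) and the histone demethylase gene Kdm3a (0.973), and for Trim71 Plcxd1 (0.962) and Pdcd11 (0.959). For Utf1 they were Smim15 (0.968) and Chchd7 (0.953), for Pou5f1 Kif20a (0.967) and Tex261 (0.939), for Lin28b Aste1 (0.906) and Itpkb (0.902), and for Sox2 Stk38l (0.888) and Hnrnph2 (0.826). These values describe 12 arrays that share groups and clones, and with so many genes searched high values arise in any case.

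The let-7 axis was followed through its pathway genes, its precursors and its targets. Each list count below is to be read beside the shares over all genes. These were 8.82% higher and 12% lower between KO/ERRb-wt and WT/mock. They were 2.11% and 3.47% between KO/mock and WT/mock, and 1.24% and 3.17% between KO/ERRb-wt and KO/mock. Of genes with a mean level of at least 6, 37.8%, 10.8% and 8.3% were called in the same order. let-7 microRNAs and the miR-302 family, which is made by ES cells and promotes their cycling, are shown because they differ in the seed that selects targets. Mature sequences are RefSeq entries of GRCm38.p6, from 5′ to 3′, with the seed, bases 2 to 8, in capitals.
let-7a-5p: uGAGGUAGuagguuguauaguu
let-7g-5p: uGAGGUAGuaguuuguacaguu
let-7d-5p: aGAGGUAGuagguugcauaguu
miR-302a-5p: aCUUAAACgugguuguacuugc
miR-302b-3p: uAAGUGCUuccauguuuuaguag
miR-302c-3p: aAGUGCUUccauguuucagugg
miR-302d-3p: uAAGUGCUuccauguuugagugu
The table held a 5p entry for 11 of the 12 let-7 precursor genes measured, and all 11 share the seed GAGGUAG, the letters that pair with Lin28a, Lin28b and Trim71 messages. miR-302b-3p and miR-302d-3p share AAGUGCU, and the entry for miR-302c-3p gives AGUGCUU. The entries used here held no 3p strand of miR-302a. Its 5p strand is printed instead, and the seed of that strand is not to be compared with the 3p seeds. On this array the probe sets read precursor or host RNA and not the mature microRNA.

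No let-7 precursor was called in any comparison by limma. Their differences lay between -0.66 and 0.18 between KO/ERRb-wt and WT/mock (lowest adjusted p 0.185), between -0.34 and 0.27 between KO/mock and WT/mock (0.359) and between -0.71 and 0.31 between KO/ERRb-wt and KO/mock (0.245). At an unadjusted p under 0.05 there were 0, 0 and 1 in the same order. The medians were -0.04, 0.04 and -0.02.

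Of 13 genes for enzymes and other proteins of the let-7 pathway, 1 rose and 4 fell between KO/ERRb-wt and WT/mock. Between KO/mock and WT/mock 0 rose and 2 fell, and between KO/ERRb-wt and KO/mock 0 rose and 1 fell. The medians were 0.02, 0.05 and -0.01, against 0.03, 0.00425 and 0.017 over all genes. Ddx5, an RNA helicase of the Drosha complex, fell in all 3, in the same order by 0.86 ± 0.07 (SE; adjusted p = 1.55e-05), 0.31 ± 0.07 (0.0255) and 0.55 ± 0.07 (0.00223). The call between KO/mock and WT/mock ended when any of 5 arrays was left out (highest adjusted p 0.0868). Tut7, a terminal uridylyl transferase that Lin28a recruits to let-7 precursors, fell by 0.48 ± 0.06 between KO/ERRb-wt and WT/mock (adjusted p = 0.000195). Tut4, its relative, had a difference of -0.14 ± 0.07 there and was not called (adjusted p = 0.244). Dis3l2, the nuclease that degrades uridylated precursors, fell by 0.49 ± 0.09 (adjusted p = 0.00429). Tarbp2, a partner of Dicer, rose by 0.44 ± 0.09 (adjusted p = 0.0049). Drosha and Dicer1, which cut the precursors, had differences of 0.18 and 0.05 and were not called (adjusted p = 0.0677 and 0.645).

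Of 18 further genes known as let-7 targets, 7 rose and 2 fell between KO/ERRb-wt and WT/mock, 1 rose and 0 fell between KO/mock and WT/mock, and 1 rose and 0 fell between KO/ERRb-wt and KO/mock. In the first of these comparisons 20.8% of all genes were called, and 37.8% of genes with a mean level of at least 6. The medians were 0.18, 0.12 and 0.02, against 0.03, 0.00425 and 0.017 over all genes. Mycn, a MYC family factor, rose by 0.69 ± 0.12 (SE; adjusted p = 0.0023) between KO/ERRb-wt and WT/mock. Ccnd1, a cyclin of the early cell cycle, rose by 0.38 ± 0.07 (adjusted p = 0.00386) and Arid3b, a DNA-binding protein, by 0.34 ± 0.06 (adjusted p = 0.00191). With all probe sets of Arid3b averaged its difference was 0.22 and was not called (adjusted p = 0.0776). E2f5, an E2F factor, fell by 0.31 ± 0.07 (adjusted p = 0.0114). Hmga2, the best known target of the family, had a difference of -0.49 ± 0.16 and was not called (adjusted p = 0.0576). The genes called thus moved in both directions.

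Of 10 ES cell microRNA precursors measured, 3 rose and 0 fell between KO/ERRb-wt and WT/mock, and none was called in the other comparisons, with 0 at an unadjusted p under 0.05 between KO/mock and WT/mock and 2 between KO/ERRb-wt and KO/mock. The medians were 0.14, 0.03 between KO/mock and WT/mock and 0.10 between KO/ERRb-wt and KO/mock. The list held 18 precursors, and those from Mir291a to Mir295 and Mir92-1 were not measured. Of the measured ones Mir17, Mir18, Mir19a and Mir20a lie on chromosome 14. All 3 that rose belong to the Mir302 cluster on chromosome 3. Mir302a read 4.70, 4.37, 3.96 and 4.73 on the KO/ERRb-wt arrays, 3.27, 3.74, 3.28 and 4.12 on the KO/mock arrays and 3.17, 3.28, 3.46 and 3.61 on the WT/mock arrays. It rose by 1.06 ± 0.22 (SE; adjusted p = 0.00624) between KO/ERRb-wt and WT/mock without overlap. All of these levels lay below the array medians.
Mir302d rose by 0.78 (adjusted p = 0.0124) and Mir302c by 1.07 (adjusted p = 0.0267), and the call of Mir302c ended when any of 6 arrays was left out (highest adjusted p 0.0748). Mir302b had a difference of 0.72 and was not called (adjusted p = 0.0869). Larp7, the gene in whose intron the cluster lies, rose by 0.33 ± 0.07 in the same comparison (adjusted p = 0.00744).

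Partners and targets of Pou5f1 and Sox2 moved in both directions. Beside the counts of this and the following lists, 20.8% of all genes were called between KO/ERRb-wt and WT/mock. Among genes with a mean level of at least 6 the share was 37.8%. Of 18 core pluripotency partners, 5 rose and 4 fell between KO/ERRb-wt and WT/mock, 1 rose and 1 fell between KO/mock and WT/mock, and 3 rose and 3 fell between KO/ERRb-wt and KO/mock, with medians of 0.05, 0.06 and 0.04. Prdm14, a PR-domain factor of the naive state, fell by 0.83 ± 0.09 (SE; adjusted p = 0.000136) between KO/ERRb-wt and WT/mock. Nanog fell by 0.40 ± 0.05 there (adjusted p = 0.000195). Tcf7l1, a repressor of Wnt targets, rose by 0.69 ± 0.11 (adjusted p = 0.00121) and Dnmt3l, a cofactor of DNA methyltransferases, by 1.49 ± 0.10 (adjusted p = 5.5e-06).

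Of 13 genes known as targets of Pou5f1 and Sox2, Utf1 among them, 1 rose and 4 fell between KO/ERRb-wt and WT/mock, 0 rose and 1 fell between KO/mock and WT/mock, and 1 rose and 2 fell between KO/ERRb-wt and KO/mock, with medians of -0.01, -0.09 and 0.01. Fgf4, a growth factor with a classic enhancer bound by Pou5f1 and Sox2, fell by 0.44 ± 0.06 (SE; adjusted p = 0.000293) between KO/ERRb-wt and WT/mock and by 0.35 ± 0.06 between KO/mock and WT/mock (adjusted p = 0.00393). Lefty1, an inhibitor of Nodal, rose by 0.67 ± 0.16 between KO/ERRb-wt and WT/mock (adjusted p = 0.0149). Its call ended without clone 5-2 (adjusted p = 0.165) or clone 12-3 (adjusted p = 0.138). Fgf4 and Utf1, both with such enhancers, fell between KO/ERRb-wt and WT/mock, while 8 of the 13 were not called. Pou5f1 and Sox2 were not called there, though Pou5f1 was higher without overlap (0.22; limma, adjusted p = 0.0535). Any link between the factors and these targets was not tested.

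Among 17 relatives of the POU, SOX and SALL factors, 3 rose and 3 fell between KO/ERRb-wt and WT/mock, 1 rose and 1 fell between KO/mock and WT/mock, and 0 rose and 1 fell between KO/ERRb-wt and KO/mock, with medians of 0.07, 0.03 and 0.03. Sox11 rose by 0.47 ± 0.09 (SE; adjusted p = 0.00278) and Sox13 by 0.35 ± 0.08 (adjusted p = 0.0126) between KO/ERRb-wt and WT/mock, and Sox1, a neural SOX factor, fell by 0.67 ± 0.13 (adjusted p = 0.00514). Sox4 rose by 0.65 ± 0.13 between KO/mock and WT/mock (adjusted p = 0.0154) and fell by 0.54 ± 0.13 between KO/ERRb-wt and KO/mock (adjusted p = 0.0455). That second call ended when any of 10 arrays was left out (highest adjusted p 0.106). The first ended without clone 5-2, 8-3 or 8-4 (adjusted p = 0.0705, 0.104 and 0.0836). Pou4f1, among those that fell between KO/ERRb-wt and WT/mock, lies on chromosome 14. Sall1, a relative of Sall4, differed by 0.01, 0.03 and -0.01 and was not called.

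Among 16 chromatin genes linked to Utf1 and Sall4, 1 rose and 4 fell between KO/ERRb-wt and WT/mock, 1 rose and 1 fell between KO/mock and WT/mock, and 0 rose and 1 fell between KO/ERRb-wt and KO/mock, with medians of 0.06, 0.03 and 0.02. Mbd3, a subunit of the NuRD deacetylase complex, rose by 0.40 ± 0.06 (SE; adjusted p = 0.00112) between KO/ERRb-wt and WT/mock. In the same comparison Hdac2, a deacetylase of that complex, fell by 0.36 ± 0.05 (adjusted p = 0.000601) and Mtf2, a Polycomb accessory subunit, by 0.28 ± 0.06 (adjusted p = 0.0113). Dcp1a, an mRNA decapping factor that Utf1 tethers, fell by 0.49 ± 0.06 (adjusted p = 0.000208), and it lies on chromosome 14.

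**Figure D4:**
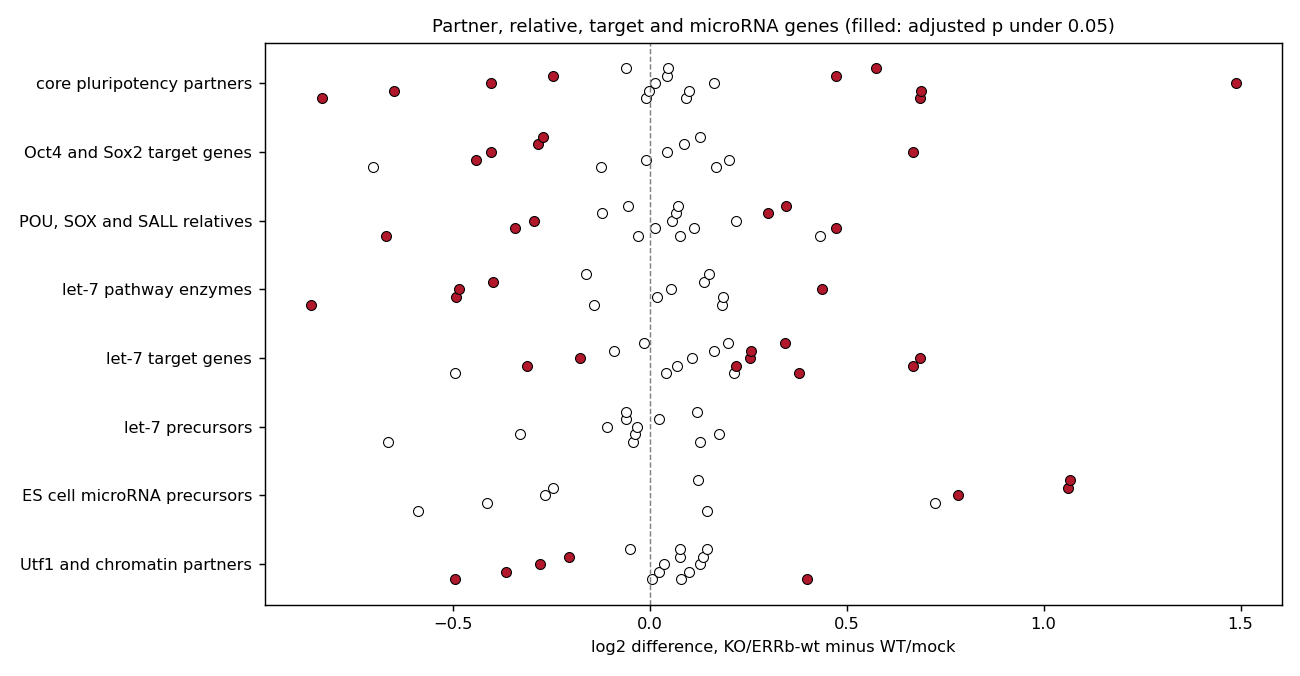
Log2 difference between KO/ERRb-wt and WT/mock (horizontal axis) of each measured gene of 8 lists (vertical axis), filled where the adjusted p was under 0.05. The 12 let-7 precursors are all open, 3 ES cell microRNA precursors are filled on the right, and each of the other 6 lists has filled points on both sides of 0.

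Markers of other cell types moved with the labels in part. Of all genes, 20.8% were called between KO/ERRb-wt and WT/mock, 5.58% between KO/mock and WT/mock and 4.4% between KO/ERRb-wt and KO/mock. Over 12 fibroblast markers, which would reveal feeder cells, the mean log2 level lay between 5.97 and 6.03 on the KO/ERRb-wt arrays, 5.87 and 5.93 on the KO/mock arrays and 5.83 and 5.9 on the WT/mock arrays. Of these, 2 rose and 0 fell between KO/ERRb-wt and WT/mock, Vim by 0.74 and Thy1 by 0.35, 1 rose between KO/mock and WT/mock, Vim by 0.57, and 0 were called between KO/ERRb-wt and KO/mock (2 at an unadjusted p under 0.05). The call of Thy1 ended when any of 4 arrays was left out (highest adjusted p 0.0877). In the mean of the 12 markers every KO/ERRb-wt array lay above every array of both other labels, while the KO/mock and WT/mock arrays overlapped. Of the 12 markers, 10 were not called between KO/ERRb-wt and WT/mock. A mean level of at least 6 was reached by 4 of them in KO/ERRb-wt and by 3 each in KO/mock and WT/mock. Whether feeder cells were present, and any part of them in the differences of the 8 genes, was not tested.

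Of 12 trophoblast markers, 1 rose and 1 fell between KO/ERRb-wt and WT/mock, Cdx2 by 0.54 and Krt18 by -0.56, 0 rose and 2 fell between KO/mock and WT/mock, Krt8 by -0.44 and Krt18 by -0.61, and 0 rose and 1 fell between KO/ERRb-wt and KO/mock, Tfap2a by -0.47. Without KO/ERRb-wt clone 12-1 replicate 2 the call of Cdx2 ended, at 0.46 (adjusted p = 0.0552). The call of Krt8 ended when any of 5 arrays was left out (highest adjusted p 0.0797). With all probe sets of Krt18 averaged, its difference was -0.16 between KO/ERRb-wt and WT/mock (adjusted p = 0.292) and -0.28 between KO/mock and WT/mock (adjusted p = 0.123), and neither was called. Of 12 primitive endoderm markers, 2 rose and 1 fell, 2 rose and 1 fell, and 2 rose and 2 fell in the same order of comparisons. Lamb1, a laminin gene, rose by 1.14 and Hnf4a by 0.57 between KO/ERRb-wt and WT/mock, and Gata4, on chromosome 14, fell by 0.56. Of 10 neural markers, 2 rose and 2 fell, 0 rose and 1 fell, and 1 rose and 0 fell, with Tubb3 at 0.71 and Map2 at -0.29 between KO/ERRb-wt and WT/mock. The call of Map2 ended when any of 5 arrays was left out (highest adjusted p 0.0783), and without WT/mock clone 5-2 its difference was -0.16 (adjusted p = 0.239). Of 9 mesoderm markers, Snai1 rose between KO/ERRb-wt and WT/mock by 0.46, a call that ended when any of 9 arrays was left out (highest adjusted p 0.116), and 0 were called in the other comparisons (1 and 0 at an unadjusted p under 0.05). The ES cell marker list itself had 1 that rose and 5 that fell, 0 and 2, and 0 and 4.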

How the data were processed

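Expression was read in total RNA from 12 samples, each on its own Affymetrix MoGene 2.0 ST array. Per the submitters' processing notes, the authors used RMA and Affymetrix Expression Console (versions not given in the sources used here), and the deposited values are on a log2 scale. This method gives all arrays a common distribution, so a shift shared by most genes would not show. No detection calls were used, and the number of arrays limits the precision. Of 41345 probe sets, 23521 had exactly 1 gene symbol, giving 22180 genes. The array annotation names no build, so gene coordinates are not printed; promoter and microRNA entries carry the coordinates of GRCm38.p6.

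All arrays entered a single limma fit of the 3 groups (limma 3.58.1, statmod 1.5.0, R 4.3.3), clone entering as a random effect (consensus correlation 0.0286), and two-sided p-values were Benjamini-Hochberg adjusted across every probe set. Genes with an adjusted p under 0.05 are called. Clones of 1 label were compared in a fit of 6 clones without a block. The pipeline was tested on simulated data.

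The 8 genes and the lists were chosen with earlier results of these data known. The lists were core pluripotency partners, Oct4 and Sox2 targets, POU, SOX and SALL relatives, let-7 pathway enzymes, let-7 targets, let-7 precursors, ES cell microRNA precursors, Utf1 and chromatin partners, and trophoblast, primitive endoderm, neural, mesoderm, fibroblast and ES cell markers. Named are the 8 genes, Esrrb, up to 4 called genes of each list with the smallest adjusted p, and the 2 genes most correlated with each of the 8. Tut4, Drosha, Dicer1, Hmga2, Mir302b, Larp7, Sall1 and Pou4f1 were added after their values were seen. Some microRNA genes are named only because they were not measured or lie on chromosome 14. The list of let-7 pathway enzymes also holds proteins of that pathway that are not enzymes.

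Replicate numbers 1 and 2 count arrays within a clone. Whether they also mark a batch shared across clones is not known here. The differences between replicates 1 and 2 correlated at r = -0.0133 to 0.141 over 12 pairs of clones, 1 of them above 0.1. Such weak correlations do not settle the question for single genes. Alternatives changed the block, the scaling, the filter on dim probe sets, the prior, the probe set rule, and left out arrays and clones.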

Additional observations from a re-analysis of the deposited data

Results flagged for a closer look

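Utf1 on replicate 1 of KO/ERRb-wt clone 12-3 read 10.66, while the other KO/ERRb-wt arrays read 10.74, 10.73 and 10.73, so its gap to them was large relative to the range of the group. Of the 24 groups of 4 arrays examined, it was the 1 with such an array, and chance alone gives about 5% of groups. The group spans a narrow range, and without this array the 5 calls of the 8 genes between KO/ERRb-wt and WT/mock and the call of Utf1 between KO/ERRb-wt and KO/mock were kept.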

How the results depend on the processing

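With clones averaged to 1 value each, 0 of the 8 genes were called in any comparison (limma; 6, 3 and 2 at an unadjusted p under 0.05 for KO/ERRb-wt against WT/mock, KO/mock against WT/mock and KO/ERRb-wt against KO/mock). The probe sets called then numbered 2251, 10 and 0 (10012, 5136 and 6124 unadjusted), against 6460, 1602 and 1329 as reported, and fewer values entered that fit. The lowest adjusted p of the 8 genes there was 0.0662, for Lin28a against WT/mock.

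Between KO/mock and WT/mock, Lin28a was the 1 gene called, and 0 were called with the replicate block (Lin28a adjusted p = 0.0524), with only the groups compared (0.101), or without clone 5-2, 8-4, 12-1 or 12-3. Without a clone block or without clone 5-5, 2 were called, and 3 with dim probe sets left out or a trended robust prior. Leaving out single arrays gave 0 to 2. The probe sets called fell to 520 without clone 5-2 and 525 without clone 8-4, and single arrays left out gave 888 to 1841, with 888 and 979 for replicates 1 and 2 of clone 5-2 and 988 and 952 for those of clone 8-4.

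Between KO/ERRb-wt and KO/mock, 0 of the 8 genes were called without clone 8-3 or 12-3, and 2 with dim probe sets left out or a trended prior; single arrays left out gave 1 to 2. The probe sets called were 777 with only the groups compared, 131 without clone 8-3, 879 without 8-4, 541 without 12-1 and 258 without 12-3. Single arrays left out gave 544 to 1399, with 564 and 544 for clone 8-3, 680 for replicate 2 of clone 8-4, and 785 and 618 for clone 12-3. Of the calls, 30.4% were higher as reported, 42.2% after quantile normalization and 21.5% after median centring.

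Between KO/ERRb-wt and WT/mock, 4 to 6 of the 8 genes were called in every other setting, and probe sets fell to 3139 without clone 5-2 and 3656 without clone 12-3. The replicate block kept 5 of the 8 there and 6011 probe sets, and 1 of the 8 between KO/ERRb-wt and KO/mock with 973 probe sets. Pou5f1 was called in 8 of 27 settings (lowest adjusted p 0.0245). The cause of these changes was not tested.

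Reversals concerned differences near 0 that were not called. Sox2 turned to 0.0176 without clone 5-5 and 0.0495 without clone 8-3 between KO/mock and WT/mock. Between KO/ERRb-wt and KO/mock it turned to 0.0326 without replicate 2 of clone 8-4, 0.0200 without replicate 1 of clone 12-3, 0.0829 without clone 8-4 and 0.0205 without clone 12-3, and single arrays left out gave -0.0661 to 0.0326. Zscan10 turned to -0.000305 without clone 8-3 there, and Lin28b to 0.00605 without clone 12-3 against WT/mock. Among the named list genes no called difference reversed, but many calls ended when a clone was left out. Without clone 5-2, these included Dis3l2, Ccnd1, E2f5, Lefty1, Sox13, Mtf2, Mir302a and Mir302d between KO/ERRb-wt and WT/mock. Between KO/mock and WT/mock they included Fgf4 without clone 8-4 and Vim without clone 5-2 or 8-4. Between KO/ERRb-wt and KO/mock they included Ddx5 and Tfap2a without clone 8-3.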

Other observations

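Nr5a2, which encodes a nuclear receptor that can act in place of Pou5f1 in reprogramming, rose by 0.57 ± 0.09 (SE; limma, adjusted p = 0.00125) between KO/ERRb-wt and WT/mock, and L1td1, which encodes an RNA-binding partner of Lin28 proteins, rose by 0.47 ± 0.10 (adjusted p = 0.00836). Myc rose by 0.67 ± 0.20 (adjusted p = 0.04) in the same comparison, beside Mycn. All of them were named after their values were seen. Nr0b1, whose product binds Pou5f1 and ERRb, had differences of 0.05 between KO/ERRb-wt and WT/mock, 0.38 between KO/mock and WT/mock and -0.33 between KO/ERRb-wt and KO/mock, and was not called in any of them.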
